A study of Mus musculus with 6 samples.

Results

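The 41 genes described here encode lysosomal enzymes, proteins of the lysosomal membrane or its cargo, and subunits of the proton pump that acidifies the organelle. They were chosen by name and sorted by role out of the 38739 genes of a normalized RNA sequencing table, and none of the 41 was at 0 throughout. The rule used no measured value, but earlier results of these data were known when it was set. By class there were 9 proteases, 14 glycosidases, sulfatases and other hydrolases, 9 membrane proteins, lipid carriers and cargo receptors, and 4 V0 and 5 V1 subunits of the pump. The samples were neutrophils from the peritoneum of cGAS knockout mice (strain given as C57B/L6). Per the methods of the study, mice were male and 8 weeks old, and the cells were drawn into the peritoneum with thioglycollate and harvested 2 h later. The cells stood for 2 h in medium alone (untreated, 3 samples) or with LPS of E. coli O26:B6 (LPS, 3 samples), the endotoxin of Gram-negative bacteria. The labels give 500 ng/mL of LPS, whereas the methods of the study give a lower dose for the sequenced cells. The deletion of cGAS, which senses DNA in the cytosol, was shared by both groups, so the comparison is that of LPS with medium within the knockout, and no wild-type sample was part of it. No source says whether the 3 samples of a group came from separate mice, so the p values measure the spread among these samples, which may be technical.

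Lysosomes break down proteins, sugars, lipids and nucleic acids with hydrolases that work best in acid. The acid comes from the vacuolar ATPase, in which the V1 sector on the cytosolic side burns ATP and the V0 sector in the membrane lets protons through. Neutrophils carry many of the same enzymes in granules that are filled as the cell matures in the bone marrow, and the transcription factor TFEB drives many lysosomal genes through an E-box known as the CLEAR element.

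Values are TPM from Kallisto (transcripts scaled to a fixed total per sample) and are called scaled TPM below, since each sample appears to have been divided by a factor of its own and each gene to hold the mean of its transcripts. Such a mean divides by the number of transcripts, so levels of different genes are not on 1 scale, and only changes within a gene are compared. Sums over genes weigh genes by such means and are compared between samples as a description. Fold changes are differences of log2(scaled TPM + 1), which understate the change of low genes, and were tested over 23049 genes with limma. The sequencing depth is unknown. Cgas stood at 0.203, 0.307 and 0.180 scaled TPM in untreated samples 1 to 3 and at 0.184, 0.0713 and 0.0286 in LPS samples 1 to 3, so this gene was near 0 in all 6. Protein-coding genes made up 21.6% to 29.0% of the summed values of an untreated sample and 50.6% to 59.99% of an LPS sample, and most of the rest fell to pseudogenes. The neutrophil label was checked with the 13 of 17 listed markers found in the table, none at 0 in all samples. Their summed level was 10425 to 30235 scaled TPM untreated and 18188 to 57556 after LPS, most of it S100a8 and S100a9. Of the 13, the groups of Clec4d lay higher after LPS without overlap, and those of Cxcr2, Csf3r, Il1r2 and Ltf lower. Cxcr2 went from a mean of 86.5 to 13.1 scaled TPM (log2 fold change -2.67, adjusted p 0.094 in limma). Samples numbered 2 had the highest neutrophil sum and the lowest B cell sum of both groups, with B cell sums of 646 to 2086 untreated and 879 to 3158 after LPS over 8 markers.

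The lysosomal genes did not move in 1 direction after LPS. Of the 41 genes, 21 had a higher mean log2 value after LPS and 20 a lower one, and the median log2 fold change was 0.00, beside 0.01 over all genes tested and 0.37 over the 6004 protein-coding genes with a mean of at least 1. At the limits of the study, which ask for an unadjusted p under 0.01 and a change beyond 2 on the log2 scale, 1 gene passed as higher, the protease gene Tpp1, beside a background of 1.69% of all genes tested. In the other direction 1 gene passed as well, the glycosidase gene Fuca1, beside a background of 1.31%. At a Benjamini-Hochberg adjusted p under 0.05 in limma, Tpp1 was the 1 higher gene, where 0.894% of all genes passed, and Ctsl, the gene of cathepsin L, was the 1 lower gene, where 0.946% passed. With so few calls, the counts were close to what the background gives for 41 genes.

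More genes separated the groups without passing these limits. In 10 of the 41 (24.4%) all 3 LPS values lay above all 3 untreated values, and in 9 (21.95%) all 3 lay below. Over all genes tested, the background of such separation was 13.1% higher and 9.75% lower. Among protein-coding genes with a mean of at least 1, it was 24.5% higher and 10.1% lower. The higher share of the 41 genes was thus close to that of expressed protein-coding genes, while the lower share was above it, a difference that was not tested. The higher genes were Tpp1, Ctsz, Ctsc, Acp2, Sqstm1, Lamp1, Cd68, Atp6v1e1, Atp6v1d and Atp6v1g1, and the lower ones were Ctsl, Fuca1, Glb1, Gaa, Grn, Psap, Cd63, Atp6v0a1 and Atp6v1h. Every class but the V0 sector held genes of both kinds. Transcripts of Ctsl, Fuca1, Glb1, Manba, Ppt1, Sqstm1, Mcoln1, Cd63 and Atp6v1g1 share at least 150 bases at 95% identity or more with a gene elsewhere, so reads may have been divided there.

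**Figure D1:**
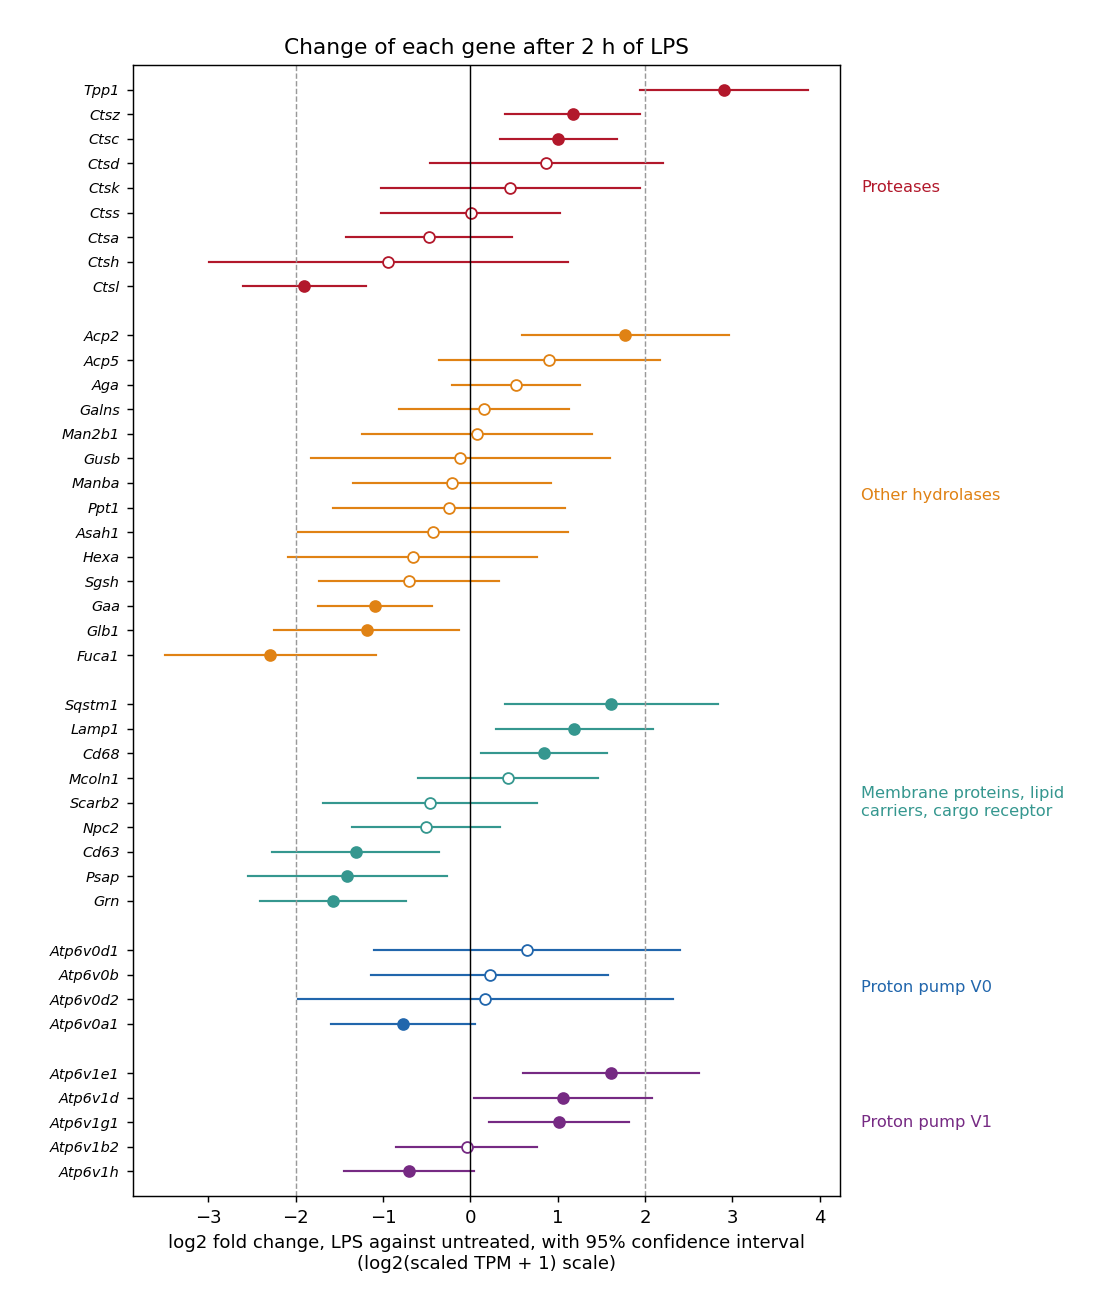
Log2 fold change of each of the 41 genes, LPS against untreated (points), with its 95% confidence interval (lines) on the log2(scaled TPM + 1) scale, by class and in order of change. Filled points mark the 19 genes whose groups do not overlap, dashed lines the limits at -2 and 2, and Tpp1 at 2.90 and Fuca1 at -2.29 are the 2 points beyond them.

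The promoters are shown first because the E-box is the sequence that lysosomal genes are known to share. A RefSeq promoter (GRCm38.p6, an older build than the GRCm39 given in the methods of the study) was found for 33 of the 41 genes. The letters CACGTG stood in the 250 bases before the start of 9 of the 33 (27.3%), against 8.36% of 12111 tested genes with a promoter. The longer TCACGTGA, the core of the CLEAR element, which contains CACGTG, stood in 3 of the 33 (9.09%), against 1.19% of tested genes. Over all 32851 promoters of the table the shares were 6.02% and 0.785%, and both motifs read the same on either strand. Windows around the match are printed 5′ to 3′ on the strand of the gene for the 4 matched genes whose groups do not overlap, then for the 3 genes with the longer core, which were picked for that core. Capitals mark CACGTG or, where present, TCACGTGA.

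Ctsl (chr13:64370731-64370770, minus strand): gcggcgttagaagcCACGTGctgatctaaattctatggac
Glb1 (chr9:114401010-114401055, plus strand): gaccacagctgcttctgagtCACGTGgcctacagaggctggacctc
Gaa (chr11:119267803-119267848, plus strand): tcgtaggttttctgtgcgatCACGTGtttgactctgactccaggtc
Lamp1 (chr8:13159080-13159160, plus strand): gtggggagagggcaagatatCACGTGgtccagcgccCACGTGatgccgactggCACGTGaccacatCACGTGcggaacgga
Ctsa (chr2:164833741-164833772, plus strand): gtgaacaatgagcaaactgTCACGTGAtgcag
Ctsd (chr7:142387900-142387945, minus strand): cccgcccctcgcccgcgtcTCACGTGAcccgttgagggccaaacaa
Mcoln1 (chr8:3500428-3500499, plus strand): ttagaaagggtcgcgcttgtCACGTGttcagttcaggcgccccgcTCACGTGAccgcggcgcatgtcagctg

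The motif stood before genes that were higher and genes that were lower. The 9 genes with CACGTG were these 7, Sgsh and Atp6v0b, and 4 of them had a higher mean after LPS, at a median change of -0.47 on the log2 scale. In 1 of them, Lamp1, with 4 copies, the LPS group lay above the untreated group without overlap, and in 3 (Ctsl, Glb1, Gaa) it lay below. Of the 24 genes without the letters, 13 were higher, 8 had higher groups and 5 lower groups without overlap, and the median was 0.04. The 3 genes with the CLEAR core had log2 fold changes of -0.47 (Ctsa), 0.87 (Ctsd) and 0.43 (Mcoln1), none past either rule. Tpp1 and Fuca1 are not among the genes with a match.

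The proteases split widest, with Tpp1 higher and Ctsl lower. Tpp1 encodes tripeptidyl peptidase, which cuts 3 residues at a time from the free amino end of peptides. It read 2.79, 1.40 and 0.718 scaled TPM in untreated samples 1 to 3 and 17.1, 21.8 and 14.8 in LPS samples 1 to 3. Every LPS value was far above every untreated one. The mean rose from 1.64 ± 1.06 to 17.9 ± 3.59 scaled TPM (SD, n = 3 each), a ratio of 10.95 and a log2 fold change of 2.90 ± 0.39 (SE), with an adjusted p of 0.032 in limma. Leaving out untreated sample 2 or 3 or any 1 LPS sample raised that adjusted p to between 0.063 and 0.121, while Tpp1 remained past the limits of the study in each of these fits. Over all 18 alternatives it ran from 0.0036 to 0.137. Among all genes tested, 206 higher genes had an adjusted p under 0.05 in the main fit. That number was 194 or 63 without untreated sample 2 or 3, and 1, 230 or 1 without LPS sample 1, 2 or 3. Tpp1 lies at chr7:105394018-105401481 on the minus strand (GRCm39).

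Ctsl encodes cathepsin L, a cysteine protease of the endosome and lysosome, and its promoter window is the first printed above. It lies at chr13:64507151-64518704 on the minus strand (GRCm39). Untreated samples 1 to 3 gave 38.9, 38.4 and 33.3 scaled TPM, and LPS samples 1 to 3 gave 11.7, 8.64 and 7.49. The untreated values were tight and the groups were far apart. Ctsl fell by 1.90 on the log2 scale (SE 0.29), with an adjusted p of 0.040 in limma. The mean went from 36.9 ± 3.07 to 9.27 ± 2.15 scaled TPM (SD, n = 3 each). Without any 1 of the 6 samples its adjusted p lay between 0.057 and 0.116, and over all 18 alternatives it ran from 0.0096 to 0.136. Among all genes tested, 218 lower genes had an adjusted p under 0.05 in the main fit and 7 to 256 without 1 sample.

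Other cathepsin genes went both ways. Ctsz, which encodes the carboxypeptidase cathepsin Z, read 652, 675 and 409 scaled TPM untreated and 1259, 1452 and 1132 after LPS (log2 fold change 1.17.) Ctsc, which encodes the dipeptidyl peptidase that activates the serine proteases of neutrophil granules, went from 5.03 to 6.18 untreated to 11.2 to 14.5 after LPS (log2 fold change 1.01.) Both separated the groups, but neither passed, with adjusted p values of 0.128 and 0.132 in limma. Ctsd, which encodes the aspartic protease cathepsin D, read 506, 1269 and 458 scaled TPM untreated and 908, 2083 and 950 after LPS. Its groups overlapped through samples numbered 2, the highest of each group, and its log2 fold change was 0.87 ± 0.55 (SE, adjusted p 0.486 in limma). Within each sample number the LPS value was the higher one, and with the number as a block the adjusted p in limma was 0.175. A gene model of the same strand, Gm49369, shares exons with Ctsd, so reads may have been divided between them. The mean of Gm49369 was 677 scaled TPM untreated and 588 after LPS, so it did not rise as that of Ctsd did.

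The remaining proteases had overlapping groups. Ctss, which encodes the cathepsin that trims the invariant chain of class II molecules, had a log2 fold change of 0.00 with a 95% confidence interval of -1.02 to 1.02, so changes of either sign lie within the error. Ctsh, an aminopeptidase gene, read 3.91, 33.5 and 39.2 scaled TPM untreated and 9.71, 6.80 and 10.5 after LPS, and its log2 fold change of -0.94 had an interval of -2.996 to 1.11. The untreated scatter of Ctsh was wider than the difference between the groups. Ctsk, known as the collagen-degrading cathepsin of osteoclasts, was listed at 2.95, 0 and 0 scaled TPM in untreated samples 1 to 3 and at 0.901 to 1.56 after LPS. Ctsa, which encodes the protective protein of the galactosidase complex, had a log2 fold change of -0.47.

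**Figure D2:**
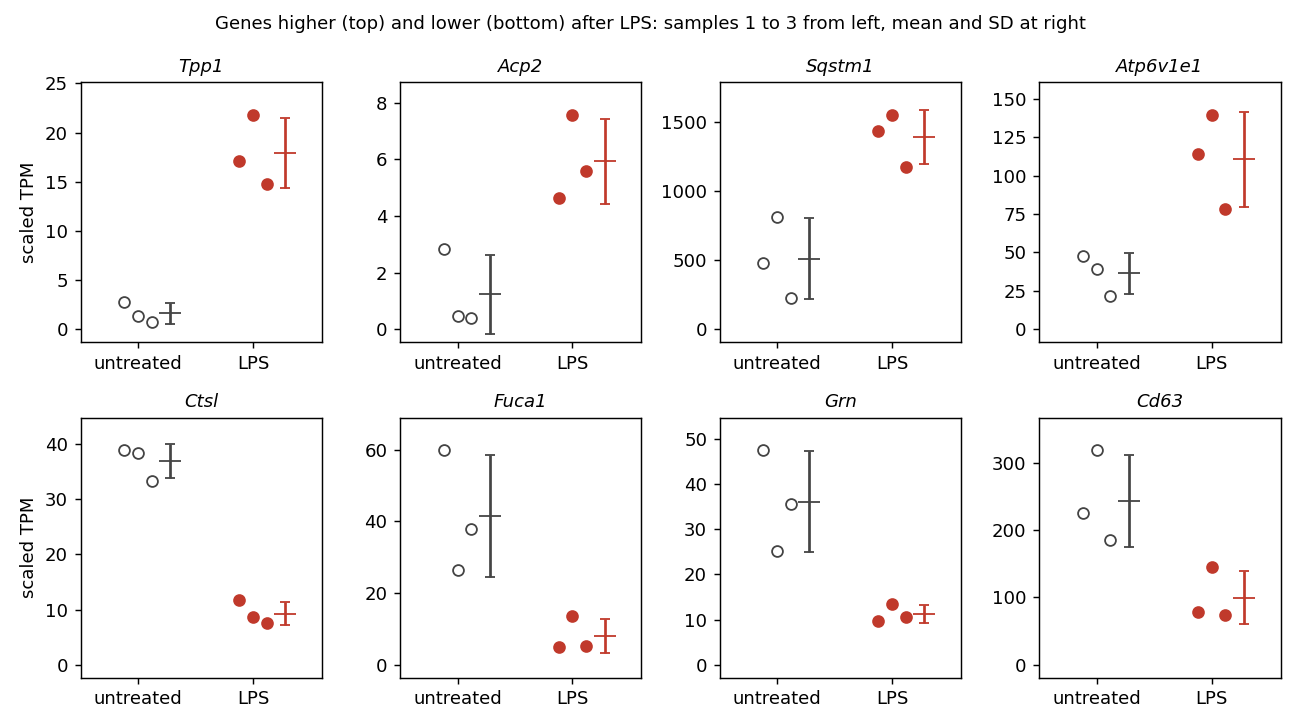
Scaled TPM of 8 genes in each sample, with untreated samples as open and LPS samples as filled points, samples 1 to 3 from left to right, and the mean and SD of each group (n = 3) beside the points. Tpp1, Acp2, Sqstm1 and Atp6v1e1 (top) lay higher and Ctsl, Fuca1, Grn and Cd63 (bottom) lower after LPS, with no overlap of the groups. Each panel has its own scale.

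Among the 14 other hydrolases, 9 had a lower and 5 a higher mean after LPS, at a median of -0.23 on the log2 scale. Fuca1, which encodes the fucosidase that takes fucose off glycoproteins, lies at chr4:135648004-135668235 on the plus strand (GRCm39). It read 59.9, 26.4 and 37.8 scaled TPM in untreated samples 1 to 3 and 5.08, 13.6 and 5.31 in LPS samples 1 to 3. Every LPS value was below every untreated value, with samples numbered 2 the closest to each other. Fuca1 fell by 2.29 on the log2 scale (SE 0.50), from a mean of 41.4 ± 17.0 to 7.98 ± 4.83 scaled TPM (SD, n = 3 each). This passed the limits of the study, but the adjusted p in limma was 0.082. Without untreated sample 1 or 3, or LPS sample 1 or 3, Fuca1 no longer passed these limits (log2 fold changes of -2.31 to -1.99). Its adjusted p ran from 0.027 to 0.263 over the 18 alternatives.

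A pair of other glycosidase genes with an E-box window printed above also had lower groups. Gaa encodes the acid glucosidase that breaks down glycogen and is lost in Pompe disease. It read 7.39, 7.57 and 8.79 scaled TPM untreated and 2.95, 3.28 and 3.28 after LPS (log2 fold change -1.09, adjusted p 0.106 in limma). Its values were tight within both groups. Glb1, which encodes the acid galactosidase, read 12.5, 4.56 and 10.2 untreated and 3.51, 2.24 and 3.88 after LPS (log2 fold change -1.19, adjusted p 0.239 in limma). Glb1 shares exons on its strand with Tmppe, whose mean went from 7.95 to 1.75 scaled TPM, so the 2 genes cannot be told apart with certainty.

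Acp2, a gene of lysosomal acid phosphatase, had the highest log2 fold change of the hydrolase genes. It read 2.82, 0.486 and 0.389 scaled TPM untreated and 4.64, 7.58 and 5.57 after LPS. Untreated sample 1 stood apart from the other two untreated samples, yet below every LPS sample. The log2 fold change was 1.78 ± 0.49 (SE) with an adjusted p of 0.133 in limma, and without untreated sample 1 Acp2 passed the limits of the study with a log2 fold change of 2.25. Acp5, the gene of the tartrate-resistant acid phosphatase of macrophages and osteoclasts, was at 0.91 and Aga, which encodes the enzyme that splits asparagine from sugar chains, at 0.52, both with overlapping groups.

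The other hydrolase genes had intervals that spanned 0. Hexa, which encodes a subunit of hexosaminidase, read 145, 555 and 146 scaled TPM untreated and 154, 160 and 120 after LPS. Apart from untreated sample 2, Hexa was at nearly 1 level throughout. Its log2 fold change was -0.66 ± 0.58 (SE, adjusted p 0.557 in limma). Sgsh, the gene of a heparan sulfatase, was at -0.70, the ceramidase gene Asah1 at -0.43, the thioesterase gene Ppt1 at -0.24, the mannosidase genes Manba at -0.21 and Man2b1 at 0.07, the glucuronidase gene Gusb at -0.11 and the sulfatase gene Galns at 0.16. For Gusb, Asah1, Man2b1 and Hexa, untreated sample 2 was the highest of all 6 samples.

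Lysosomal membrane proteins and carriers also went both ways. Sqstm1 encodes p62, the receptor that hands ubiquitin-tagged cargo to autophagosomes for delivery to lysosomes, and it had the highest log2 fold change of the class. It read 483, 813 and 230 scaled TPM untreated and 1436, 1552 and 1172 after LPS. The lowest LPS value was above the highest untreated value, and the mean went from 509 ± 293 to 1386 ± 195 scaled TPM (SD, n = 3 each). The log2 fold change was 1.62 ± 0.50 (SE) with an adjusted p of 0.171 in limma, and it passed the limits of the study without untreated sample 2 (2.04). Lamp1, which encodes a major glycoprotein of the lysosomal membrane and has the 4 E-boxes printed above, read 163, 175 and 108 untreated and 306, 477 and 254 after LPS (log2 fold change 1.19.) Cd68, the gene of a related membrane protein of phagocytes, went from 157 to 179 untreated to 230 to 381 after LPS (log2 fold change 0.84.) Neither Lamp1 nor Cd68 passed a rule.

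Grn had the lowest log2 fold change of this class. It encodes progranulin, a secreted precursor that is cut into granulins in lysosomes. Untreated samples 1 to 3 gave 47.6, 25.2 and 35.7 scaled TPM and LPS samples 1 to 3 gave 9.61, 13.5 and 10.6, with no overlap. The log2 fold change was -1.57 ± 0.34 (SE) with an adjusted p of 0.083 in limma. Psap, which encodes prosaposin, the precursor of the saposins that help lipid hydrolases reach their substrates and a binding partner of progranulin, read 898, 1247 and 553 untreated and 284, 522 and 223 after LPS. Its groups came close, at 553 against 522, and its log2 fold change was -1.41. Cd63, the gene of a tetraspanin of late endosomes and azurophil granules, read 225, 319 and 186 untreated and 78.8, 145 and 74.5 after LPS (log2 fold change -1.31.) Cd63 has near-identical copies elsewhere in the genome, at least 95% alike over 150 bases or more, some of them not analysed here, so its value is uncertain.

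The rest of the class overlapped between groups. Mcoln1, which encodes the calcium channel of the lysosome, had a log2 fold change of 0.43. Npc2, which encodes a cholesterol carrier, was at -0.51, with 27.1 to 55.8 scaled TPM untreated and 24.4 to 29.2 after LPS. Scarb2, which encodes LIMP-2, the carrier of glucocerebrosidase, was at -0.46.

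**Figure D3:**
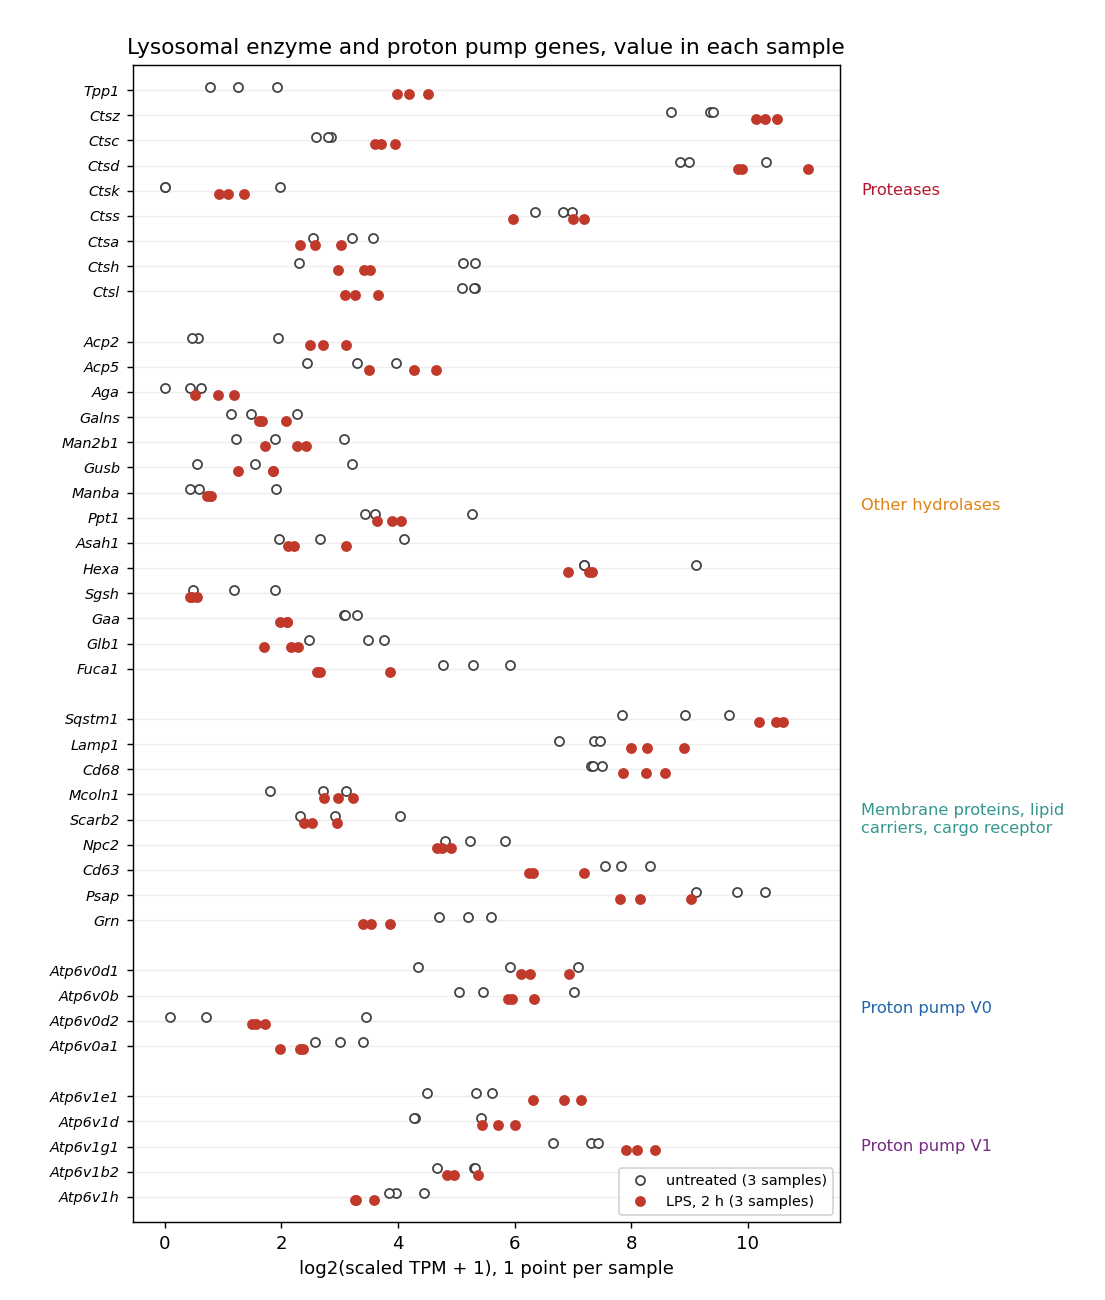
Value of each of the 41 genes in each sample on the log2(scaled TPM + 1) scale, by class, with untreated samples as open and LPS samples as filled points. In 32 of the 41 genes the LPS values had the smaller SD, as in Atp6v0d2, with 0.0678 to 9.93 scaled TPM untreated and 1.83 to 2.29 after LPS. The same count was not taken over all genes, so it is not known to be particular to these genes.

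In the proton pump, 3 of 5 V1 genes and none of 4 V0 genes had LPS groups above the untreated groups without overlap, beside 24.5% of expressed protein-coding genes. The difference between the sectors was not tested. The summed V1 value over the summed V0 value was 2.86, 4.07 and 0.691 in untreated samples 1 to 3 and 3.41, 2.87 and 2.99 in LPS samples 1 to 3, so the groups overlapped in this ratio. Atp6v1e1, Atp6v1d and Atp6v1g1, which encode parts of the stalks that link the ATP-burning head to the membrane, were higher in every LPS sample than in any untreated sample. Atp6v1e1 read 48.0, 39.5 and 21.6 scaled TPM untreated and 114, 140 and 78.3 after LPS. Its log2 fold change of 1.61 ± 0.41 (SE) was the highest of these 9 pump genes, with an adjusted p of 0.114 in limma. Atp6v1g1 read 157, 172 and 100.4 untreated and 275, 340 and 240.2 after LPS (log2 fold change 1.01 ± 0.33 SE, adjusted p 0.192 in limma). A pair of processed pseudogenes near-identical to Atp6v1g1 had means of 1.05 scaled TPM untreated and 0 after LPS. Atp6v1d went from 18.3 to 42.1 untreated to 42.3 to 63.6 after LPS (log2 fold change 1.06), so its groups all but touched, and they overlapped with samples set to an equal sum of protein-coding genes.

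The remaining V1 genes did not share this direction. Atp6v1h encodes the subunit that blocks ATP hydrolysis when V1 leaves the membrane. It read 20.8, 14.6 and 13.3 scaled TPM untreated and 11.002, 8.73 and 8.60 after LPS (log2 fold change -0.71 ± 0.31 SE, adjusted p 0.317 in limma). Every LPS value was thus the lower one. Atp6v1b2, which encodes the non-catalytic subunit of the head, had a log2 fold change of -0.04 with an interval of -0.85 to 0.76.

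No V0 gene passed a rule. Atp6v0a1 encodes a form of the large subunit through which protons pass. It read 7.07, 9.58 and 4.96 scaled TPM untreated and 2.95, 4.19 and 3.99 after LPS (log2 fold change -0.77 ± 0.34 SE, adjusted p 0.317 in limma), and was the 1 V0 gene whose groups did not overlap. Atp6v0d1, with the highest log2 fold change of the sector, read 59.5, 19.4 and 135 untreated and 75.5, 121 and 68.0 after LPS. Its untreated values spanned the LPS group on both sides, and the log2 fold change was 0.65 ± 0.72 (SE, adjusted p 0.634 in limma). Atp6v0d2, the paralogue known from osteoclasts and macrophages, was at 0.17 and Atp6v0b, of the proton-binding ring, at 0.22. In Atp6v0b, Atp6v0d1 and Atp6v0d2 untreated sample 3 was the highest of all 6 samples.

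Scaling samples to an equal sum of protein-coding genes lowered the log2 fold change of all 41 genes. The sign turned only in Ctss, Man2b1, Galns, Atp6v0b and Atp6v0d2, whose groups overlapped. With samples set to an equal sum of protein-coding genes, the median log2 fold change of expressed protein-coding genes went from 0.37 to 0.02, and each gene is read here relative to that shift. On that scale 16 of the 41 genes lay above 0 and 25 below, at a median of -0.39. Groups did not overlap in 7 higher (17.1%) and 14 lower genes (34.1%), beside 14.3% and 15.7% of expressed protein-coding genes and 8.67% and 13.8% of all genes tested. The 7 were Tpp1, Ctsz, Acp2, Sqstm1, Lamp1, Atp6v1e1 and Atp6v1g1, all among the 10 named before. The 14 were the 9 lower genes named before with Ctsa, Hexa, Sgsh, Scarb2 and Npc2. Tpp1 was at 2.53, Ctsl at -2.36, Fuca1 at -2.75 and Grn at -2.04, and these 4 passed the limits of the study, which on that scale 2.45% of expressed protein-coding genes passed as higher and 2.12% as lower. Among the 14 other hydrolases 3 then lay above 0 and 11 below. The pump stayed mixed on that scale, with Atp6v1e1 at 1.13 and Atp6v1h at -1.16, but the signs of Atp6v0b (-0.26) and Atp6v0d2 (-0.15) turned.

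**Figure D4:**
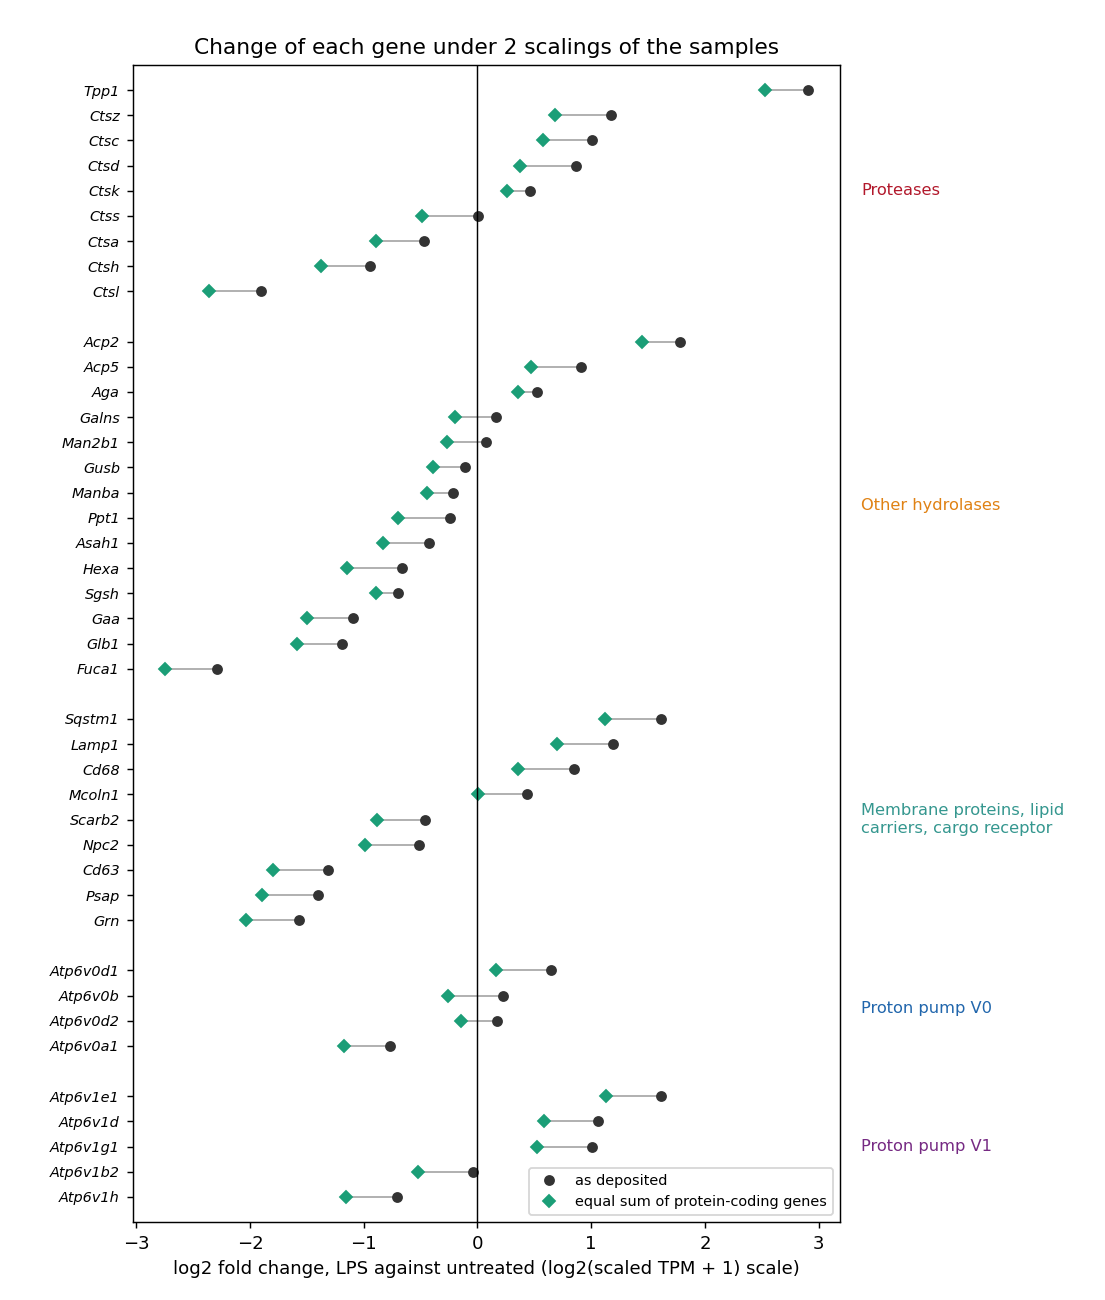
Log2 fold change of each of the 41 genes with the values as deposited (circles) and with samples set to an equal sum of protein-coding genes (diamonds), on the log2(scaled TPM + 1) scale. Diamonds lie to the left of circles throughout, and 5 genes, Ctss, Man2b1, Galns, Atp6v0b and Atp6v0d2, change sign.

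The summed level of the 41 genes also depended on what it was set against. A few genes weigh most in this sum, with Sqstm1 at 1436, Ctsz at 1259 and Ctsd at 908 of 5664 scaled TPM in LPS sample 1. It thus describes such genes more than the 41 as a set. The 41 genes made up 0.510% to 0.898% of all values in untreated samples and 1.23% to 1.68% in LPS samples, which do not overlap. As a share of protein-coding genes they made up 2.11% to 3.10% untreated and 2.40% to 2.80% after LPS, which do. Their share of all values was thus higher beside that of protein-coding genes as a whole, and their share among protein-coding genes did not separate the groups. Across the 41 genes, log2 values of 2 LPS samples correlated with a Pearson r of 0.983 to 0.997, those of 2 untreated samples with 0.912 to 0.919, and those of 1 sample of each group with 0.877 to 0.911. These describe genes within samples, which are no replicates. Untreated samples were thus less alike than LPS samples for these genes, and other genes were not compared in this way.

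Macrophages also hold many lysosomes, and their markers were measured beside these genes. Of 23 markers of macrophages or monocytes, 17 were in the table, and their summed level was 970 to 1405 scaled TPM untreated and 643 to 793 after LPS. Without Lyz2, which neutrophils express as well, the other 16 summed to 38.3 to 141 untreated and 72.6 to 151 after LPS. By mean log2 value 11 of the 17 were higher and 6 lower after LPS. The groups of C1qb, Cd5l and Selp lay higher without overlap, and those of Lyz2, Ccr2, Cx3cr1 and Mrc1 lower. The complement gene C1qb went from a mean of 2.77 to 19.8 scaled TPM and was the 1 marker of the 17 past the limits of the study (log2 fold change 2.62, adjusted p 0.064 in limma). Ccr2, the chemokine receptor gene of monocytes, went from a mean of 5.601 to 1.22. Mertk and Cx3cr1 were at most at 0.191 and 1.41 in any sample, and none of the 17 was at 0 in all samples. The part of macrophages in the lower values of Ctsl, Grn, Psap and Cd63 and the higher values of Cd68 was not tested. In such bulk samples fewer cells of a type and less RNA per cell cannot be told apart.

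Other genes of the lysosome, taken from lists by function, gave further calls. Of 233 listed genes 157 were tested, of which 99 had a higher and 58 a lower mean after LPS, against 74 and 83 with an equal sum of protein-coding genes. At the limits of the study 9 of the 157 passed as higher and 1 as lower, beside 4.91% and 0.75% of expressed protein-coding genes. At an adjusted p under 0.05 in limma it was 3 and 1, beside 2.5% and 0.716%. Without LPS sample 1 the 9 became 2, without LPS sample 2 or 3 they became 4, and without untreated sample 3 or with an equal sum of protein-coding genes 5. Among 31 other hydrolase genes, Ggh, which encodes the glutamyl hydrolase that trims folates, was at 2.89, the lysosomal phospholipase gene Pla2g15 at 2.17 and the phospholipase B-like gene Plbd2 at 2.13. Dpp7, which encodes a dipeptidyl peptidase, fell from 22.02, 11.2 and 17.1 scaled TPM untreated to 2.89, 3.37 and 2.68 after LPS, by 2.12 on the log2 scale (adjusted p 0.046 in limma, 0.019 to 0.154 over the 18 alternatives), and did not pass the limits without untreated sample 1. None of 32 other membrane protein genes passed, from the nucleic acid transporter gene Sidt2 at -1.46 to the cystine carrier gene Ctns at 1.52. None of 11 other pump genes passed either, although Atp6v1f, which encodes a V1 subunit and was named for its value, read 3.69, 6.38 and 48.8 untreated and 77.8, 86.8 and 80.6 after LPS (log2 fold change 2.78, adjusted p 0.181 in limma).

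Genes that place lysosomes or sense nutrients on them held the calls with the lowest adjusted p of these lists. Arl8a, which encodes a small GTPase that couples lysosomes to kinesin, read 12.4, 16.0 and 11.6 scaled TPM untreated and 134, 125 and 93.7 after LPS (log2 fold change 3.04, adjusted p 0.014 in limma). Rraga, which encodes the Rag GTPase that brings mTORC1 to the lysosome, read 2.19, 1.09 and 4.48 untreated and 25.5, 25.1 and 28.1 after LPS, also at 3.04 (adjusted p 0.033 in limma). Both stood far outside the untreated spread. Borcs6, a subunit gene of the BORC complex that recruits Arl8 to lysosomes, was at 2.59, and in the other direction Rab27a, a granule secretion GTPase gene, was at -2.43 without passing. This list had 29 genes above 0 and 13 below among 42 tested (22 and 20 with an equal sum of protein-coding genes), at a median of 0.38, close to the 0.37 of expressed protein-coding genes.

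Of 28 genes of autophagy and of the response to lysosomal damage, 2 passed the limits of the study, both of the oxidative stress response in which p62 binds KEAP1. Nfe2l2, which encodes the transcription factor NRF2, read 141, 131 and 40.97 scaled TPM untreated and 494, 524 and 505 after LPS (log2 fold change 2.46.) Keap1, which encodes the adaptor that holds NRF2 for degradation, was at 2.45. Their adjusted p values in limma were 0.079 and 0.068, and neither passed the limits without untreated sample 3 or any 1 LPS sample (log2 fold changes of 1.89 to 2.48 for Nfe2l2 and 2.35 to 2.56 for Keap1). With an equal sum of protein-coding genes Nfe2l2 was at 1.97 and no longer passed. Sqstm1 itself was at 1.62, while Rb1cc1, which encodes a scaffold of the autophagy kinase, was at -1.31 without passing.

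Of 18 listed genes of cystatins and other cathepsin inhibitors 8 were tested. All 8 had a higher mean after LPS, with a median log2 fold change of 0.98. Among expressed protein-coding genes 3884 of 6004 were higher, at a median of 0.37. Slpi, which encodes a secreted inhibitor of elastase and cathepsin G, read 459, 75.95 and 504 scaled TPM untreated and 2917, 4065 and 2530 after LPS (log2 fold change 3.57, adjusted p 0.082 in limma) and passed the limits of the study. Lxn, the gene of latexin, a carboxypeptidase inhibitor, was at 1.94 (adjusted p 0.038 in limma), from at most 0.185 untreated to between 2.93 and 3.97 after LPS. Slpi and Lxn were the 2 genes of the list past a rule. With an equal sum of protein-coding genes neither passed over all genes tested, at 3.08 (adjusted p 0.144 in limma) and 1.72 (0.053). Without any 1 LPS sample Slpi did not pass the limits, and without any 1 of the 6 samples the adjusted p of Lxn lay between 0.050 and 0.129. Among all genes tested, 1 to 230 higher genes had an adjusted p under 0.05 without 1 sample, from 206. The azurophil granule enzymes, which are made in the bone marrow, had 5 of 9 genes tested, none past a rule. Mpo was at 0.138 scaled TPM or less in every sample, and Elane and Prss57 were listed at 0 in all 6. The lysozyme gene Lyz2, also a macrophage marker, read 872, 1367 and 923 untreated and 642, 695 and 532 after LPS (log2 fold change -0.74), and Lyz1 had a log2 fold change of 0.97.

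**Figure D5:**
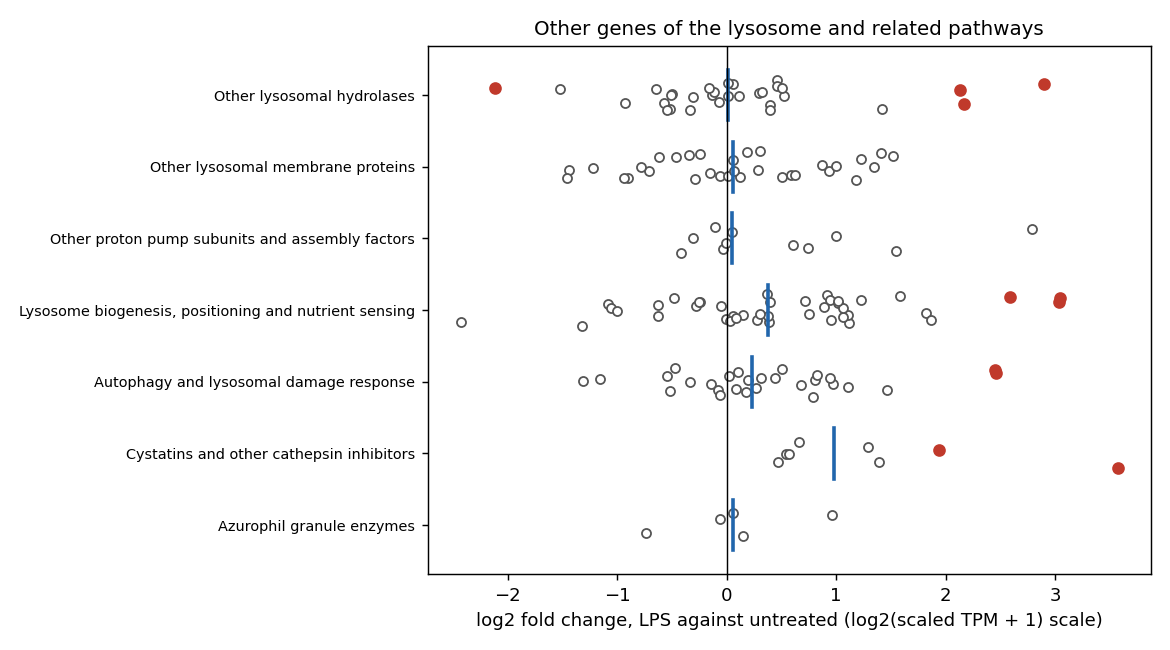
Log2 fold change of 157 other genes of the lysosome and related pathways, LPS against untreated, on the log2(scaled TPM + 1) scale, 1 point per gene and 1 row per list, with the vertical position within a row random. Filled points passed a rule and the bar marks the median of the list, which runs from 0.02 for other hydrolases to 0.98 for the inhibitors.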

How the data were processed

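RNA of 3 untreated and 3 LPS samples was sequenced from stranded libraries. The authors trimmed reads with fastp, aligned to GRCm39 with STAR, quantified with Kallisto and normalized. The labels name mm10 as a build beside GRCm39, whereas the methods of the study name GRCm39 alone. The deposited values are TPM, taken as means of the transcripts of each gene (17 of 41 values of untreated sample 3 have no finite decimal, 13 of which become finite when multiplied by a whole number up to 30) and as divided by a factor per sample. The annotation release and use of strand are not given in the sources used here. Counts were not recovered, so depth is unknown. Groups came from the titles.

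Genes above 0 in any sample (23049) were tested on log2(value + 1) with limma 3.58.1 in R 4.3.3 (eBayes with a trend, two-sided, no covariates, Benjamini-Hochberg over all of them). Calls used the limits of the study (p under 0.01 and a log2 fold change beyond 2) or an adjusted p under 0.05. The members, classes and lists were chosen with earlier results of these data known. Values by sample are given for called genes, for those of each class with the highest or lowest fold change or the highest mean (a choice of what to print, since levels are not compared between genes), and for others named after their values were seen. In lists, genes past a rule and the largest change the other way are named.

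Positions are from GENCODE M39 on GRCm39. By blastn 2.17.0, 9 members resembled a gene elsewhere, and 27 overlapped exons of another gene, mostly on the opposite strand. Scripts were tested on simulated data. Alternatives were pseudocounts of 0.1 and 5, a filter on the mean at 1, genes at 0 kept, quantile normalization, equal medians, an equal protein-coding sum, no trend, voom, a log2 limit of 1, a replicate block and leaving out each sample. Fits of protein-coding genes alone were added after seeing the data.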

Additional observations from a re-analysis of the deposited data

How the results depend on the processing

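Signs held in all alternatives for 27 of the 41 genes, 15 higher and 12 lower, among them every gene whose groups do not overlap. The limits of the study called 1 higher and 1 lower gene of the 41. With a pseudocount of 5 these were 0 and 0, and with the replicate block 1 and 0. Of 23049 genes tested, 129 and 168 passed with that pseudocount and 387 and 303 with the block, from 389 and 301. With voom they were 4 and 0, beside 17.1% and 0.233% of expressed protein-coding genes and 6.73% and 0.768% of all genes tested. With a log2 limit of 1 they were 3 and 4, beside 606 and 210 of 6004 expressed protein-coding genes and 834 and 673 of 23049 tested. The lower calls came to 2 with a pseudocount of 0.1 or equal medians, where 101 and 85 of the 6004 passed as lower. They came to 3 with an equal sum of protein-coding genes (2.12% of expressed protein-coding genes), also in protein-coding genes alone, with or without the block. Without 1 sample the calls were 1 to 2 higher and 0 to 1 lower, beside 238 to 434 and 241 to 375 of 23049 tested. An adjusted p under 0.05 in limma gave 1 higher and 1 lower gene, 12 and 2 with voom (29.3% and 4.88%, beside 28.9% and 1.45% of expressed protein-coding genes and 38.8% and 1.96% of all genes tested), 2 and 3 without a trend, 0 and 0 with the replicate block, 0 higher in protein-coding genes alone (0 lower with the block), 2 lower after a filter on the mean or with an equal protein-coding sum, and 0 to 1 higher and 0 lower without 1 sample. Over all 23049 genes tested, that adjusted p was met by 206 higher and 218 lower genes in the main fit. It was met by 687 and 611 without a trend, 118 and 381 with an equal protein-coding sum, and 1 and 15 with the replicate block. After the filter on the mean it was met by 557 and 483 of 9403 genes. In protein-coding genes alone it was met by 49 and 58 of 12755, and by 0 and 0 with the block. Without 1 sample it was met by 1 to 230 higher and 7 to 256 lower genes. At an unadjusted p under 0.05 in limma the counts were 10 and 7. At that rule 1228 and 457 of 6004 expressed protein-coding genes passed, and 2370 and 1535 of 23049 genes tested.

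Groups did not overlap in 10 higher and 9 lower genes, and in 14 lower ones with an equal protein-coding sum. The median log2 fold change of 0.00 moved to -0.31 with equal medians, -0.39 with an equal protein-coding sum and 0.62 with voom. That of expressed protein-coding genes moved from 0.37 to 0.15, 0.02 and 1.10 in the same order. With voom the median over all genes tested was 0.67, so the lysosomal genes lay below both. Genes of the other lists past the limits were 9 higher and 1 lower of 157. The higher ones came to 15 with a pseudocount of 0.1, to 5 with equal medians or an equal protein-coding sum, and to 2 to 8 without 1 sample. With voom they came to 23, where 17.1% of expressed protein-coding genes passed as higher. The lower ones came to 0 with a pseudocount of 5 or voom and to 1 to 2 without 1 sample.

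The sign turned in 14 genes, none of them called. With an equal protein-coding sum the log2 fold change was -0.48 for Ctss, -0.27 for Man2b1, -0.19 for Galns, -0.26 for Atp6v0b and -0.15 for Atp6v0d2. With equal medians it was -0.31 for Ctss, -0.17 for Man2b1, -0.043 for Galns and -0.083 for Atp6v0b. With voom it was 0.12 for Ctsa, 0.58 for Gusb, 0.37 for Manba, 0.18 for Asah1, 0.37 for Ppt1, 0.14 for Scarb2, 0.11 for Npc2 and 0.59 for Atp6v1b2. It was 0.072 for Gusb with a pseudocount of 0.1, -0.0043 for Man2b1 and -0.10 for Atp6v0d2 with one of 5, and 0.0496 for Atp6v1b2 with quantile normalization. Without 1 sample the log2 fold changes ran from -0.90 to 0.17 for Asah1, -0.18 to 0.81 for Atp6v0b, -0.072 to 1.30 for Atp6v0d1, -0.49 to 1.19 for Atp6v0d2, -0.26 to 0.071 for Atp6v1b2, -0.23 to 0.38 for Ctss, -0.085 to 0.48 for Galns, -0.72 to 0.61 for Gusb, -0.35 to 0.58 for Man2b1, -0.48 to 0.26 for Manba, -0.58 to 0.34 for Ppt1 and -0.85 to 0.0079 for Scarb2. The causes were not tested.

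Same-numbered samples deviated together with correlations of 0.102, 0.220 and 0.0925, against -0.151 to 0.0658 for samples of different numbers. The main fit did not take the numbers as pairs because no source names a pairing, and the replicate block was run as an alternative. Each sample correlates best with its own number, and erythroid and platelet marker sums were 5638 and 4678 in samples 3 against 23.2 to 604 in the others, a hint from the data. Whether the samples are paired is not known. Over all genes the replicate block left 1 higher and 15 lower genes at an adjusted p under 0.05, from 206 and 218, and the adjusted p was 0.098 for Tpp1, 0.119 for Ctsl and 0.208 for Fuca1. Depth is unknown, so a low value cannot be told from 0 by counting error.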
